A study of Mus musculus with 3 samples.

Results

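Dendritic cell spots were those capture spots of a spatial RNA-sequencing slide in which at least 0.01 of the transcripts were assigned to dendritic cells. The assignment is theta, the estimated fraction of a spot's transcripts that came from each of 27 cell types, and the 27 values of a spot sum to 1. Of 2758 spots in 3 sections, 275 met this minimum, and 96 met a stricter minimum of 0.02. The spots below 0.01 in the same section served as the comparison. Because dendritic theta itself chose the spots, its level in them is a description and carries no test. The same holds for every other theta value, since all 27 came from one estimate per spot.

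The sections were of tibialis anterior, a muscle of the lower hind limb, from female C57BL6/J mice aged 5 months. Each muscle had been injected with notexin, a snake venom toxin that kills myofibers and leaves the stem cells from which new fibers form. The 3 groups were 2, 5 and 7 days post-injury (dpi), with 1 section each, and no uninjured section was analysed here. Section, capture area and time point therefore cannot be told apart, and no test between time points was possible. A Visium spot is a small region that averages the RNA of several cells, so theta counts transcripts and not cells. Fewer dendritic cells and less RNA per dendritic cell cannot be told apart.

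Dendritic cells take up antigen in injured or infected tissue and present it to T cells on MHC class II molecules. Cd74, the invariant chain that escorts class II molecules through the cell, and H2-Ab1, a class II beta chain, mark them in mouse tissue. B cells and some macrophages carry the same genes. Gene-level values were not analysed here, so the name dendritic could not be checked against Cd74 and H2-Ab1 and rests on the name of the deposited theta column.

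Depth differed between the sections. The 859, 933 and 966 spots at 2, 5 and 7 dpi had a median of 5786, 11221 and 15135 unique molecular identifiers (UMIs) each, where a UMI stands for 1 captured RNA molecule. The shallowest spots had 1003, 1088 and 1059 UMIs. Barcodes are printed in the same way on every array, and 505 of them occurred in all 3 tables. Of those, 1 marked a dendritic cell spot in each section. Over all spots the shares of dendritic cell spots were 13.4%, 6.75% and 10.04% at 2, 5 and 7 dpi. The overlap was not compared with one expected from these shares, and nothing is read from it.

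Dendritic cell spots were a minority at each time point, and the section at 5 dpi had the fewest. At 2 dpi 115 spots met the minimum of 0.01, a share of 13.4% (exact Clopper-Pearson 95% interval 11.2 to 15.8%). At 5 dpi 63 spots did, or 6.75% (5.23 to 8.56%). At 7 dpi the count was 97, or 10.04% (8.22 to 12.1%). These intervals cover the counting of spots only, not the spread between animals. Under the stricter minimum of 0.02 the shares were 4.31%, 2.25% and 3.93%, from 37, 21 and 38 spots. Their intervals were 3.05 to 5.89%, 1.40 to 3.42% and 2.80 to 5.36%. The order of the 3 sections was the same under both minimums, and the intervals stood apart only for 2 against 5 dpi at the minimum of 0.01. A theta of at least 0.05 was reached by 7, 6 and 7 spots. Values ran through both minimums without a gap: the spots on either side of 0.01 had theta of 0.00996 and 0.01001 at 2 dpi, 0.00991 and 0.01004 at 5 dpi, and 0.00995 and 0.0101 at 7 dpi. Around 0.02 they were 0.0196 and 0.0201, 0.0198 and 0.0206, and 0.01999 and 0.0202.

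Averaged over whole sections, mean dendritic theta at 2, 5 and 7 dpi was 0.00580, 0.00425 and 0.00555. The medians over spots were lower, at 0.00339, 0.00201 and 0.00235, with quartiles of 0.00166 to 0.00661, 0.00118 to 0.00366 and 0.00137 to 0.00461. Means lay above the upper quartile at 5 and 7 dpi, where a few spots carried much of the dendritic theta. The 5 highest spots held 8.69%, 19.8% and 20.3% of the summed dendritic theta of their sections. All dendritic cell spots together held 47.8%, 46.4% and 54.9%, so a large part of the estimate was spread thinly over spots below the minimum. Without the 5 highest spots of each section the means became 0.00533, 0.00343 and 0.00445.

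Measured against the other immune cells, dendritic theta stood in a different order. The 10 other immune types of the table are B, T and natural killer (NK) cells, neutrophils, 3 monocyte states and 3 macrophage states. Their summed theta averaged 0.167 at 2 dpi, 0.0512 at 5 dpi and 0.0576 at 7 dpi. Dendritic theta was 3.35% of the immune total that includes it at 2 dpi, 7.66% at 5 dpi and 8.78% at 7 dpi. In spots with 5000 to 10000 UMIs these percentages were 3.39%, 7.23% and 6.72%, and without the 5 highest dendritic spots 3.10%, 6.47% and 7.29%. The dendritic part of immune theta was thus lowest at 2 dpi under all 3 ways of counting, while 5 and 7 dpi changed places in spots of 5000 to 10000 UMIs.

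Depth moved with membership, most of all at 2 dpi. Of the 115 dendritic cell spots at 2 dpi, 50 (43.5%) had under 3000 UMIs, against 17.9% of the other spots. At 5 dpi it was 11 of 63 (17.5%) against 7.47%, and at 7 dpi 6 of 97 (6.19%) against 6.21%. Seen from the side of depth, 27.3% of the 183 spots with under 3000 UMIs at 2 dpi were dendritic cell spots, compared with 14.5% of 76 at 5 dpi and 10.0% of 60 at 7 dpi. The deepest spots at 7 dpi, with 20000 UMIs or more, had a share of 13.2% (31 of 235). Few of the stricter spots were shallow: 6 of 37, 1 of 21 and 1 of 38 had under 3000 UMIs.

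Among spots of like depth, those with 5000 to 10000 UMIs, the shares were 10.2% at 2 dpi (31 of 305, 7.01 to 14.1%), 4.71% at 5 dpi (12 of 255, 2.45 to 8.08%) and 6.75% at 7 dpi (11 of 163, 3.42 to 11.8%). The order stayed that of all spots, and the 3 intervals overlapped. For the stricter minimum they were 4.92% (15 spots, 2.78 to 7.98%), 1.96% (5 spots, 0.640 to 4.52%) and 1.23% (2 spots, 0.149 to 4.36%), which left too few spots to order 5 and 7 dpi. With at least 3000 UMIs the shares were 9.62%, 6.07% and 10.04%, and with at least 10000 UMIs 10.6%, 6.74% and 10.8%. At the minimum of 0.01, 2 and 7 dpi thus lay close together in the sets with only a lower limit on UMIs, with 5 dpi lowest, but not in spots with 5000 to 10000 UMIs. At 0.02 with at least 10000 UMIs the shares were 6.67%, 2.62% and 4.60%.

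**Figure D1:**
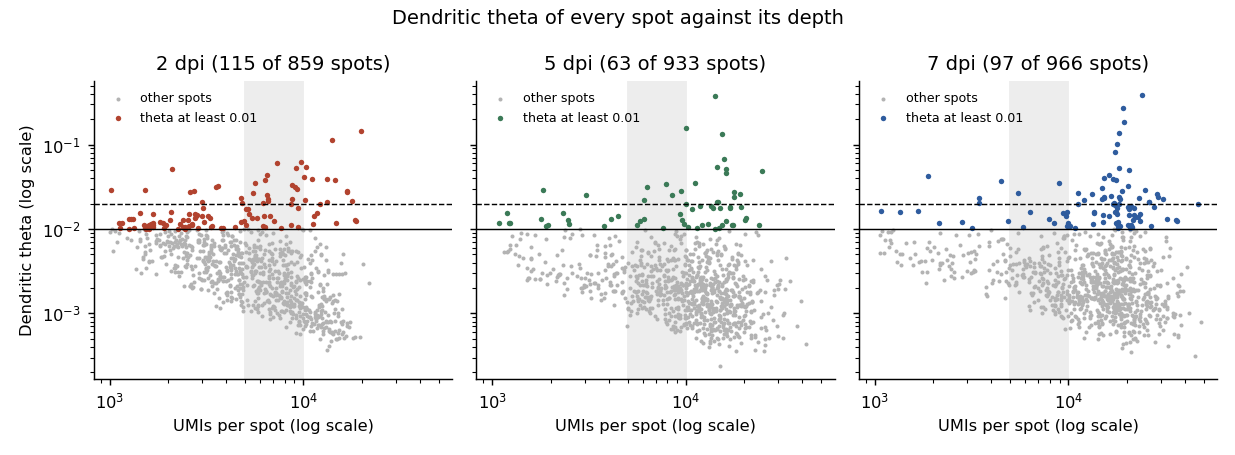
Dendritic theta of each spot (log axis) against the UMIs of the spot (log axis) in the sections at 2, 5 and 7 dpi. Each point is 1 spot, the solid line marks the minimum of 0.01, the dashed line 0.02, and the grey band 5000 to 10000 UMIs. The floor of the cloud slopes down with depth, and at 2 dpi many shallow spots lie just above the solid line, while single spots reach 0.373 at 5 dpi and 0.391 at 7 dpi.

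Low dendritic theta moved with depth and with the floor of the estimate. Over the spots of a section, dendritic theta and UMIs had Spearman rhos of -0.54, -0.35 and -0.25 at 2, 5 and 7 dpi (859, 933 and 966 spots). Dendritic theta also followed the lowest of the 27 theta values of the spot, with rho of 0.79, 0.64 and 0.46. In the median spot it was only 1.55, 1.90 and 2.54 times that lowest value. These correlations are descriptions: the spots of a section share 1 library and 1 estimate, and spots are not replicates. Within the dendritic cell spots rho with depth was 0.51 over 115 spots at 2 dpi, 0.22 over 63 at 5 dpi and, near 0, 0.060 over 97 at 7 dpi. These spots were cut on dendritic theta itself, which shallow spots can pass by lying just above the minimum. The change of sign is therefore not read as a trait of dendritic cells.

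How far dendritic theta stood out from the other types of the same spot differed between the sections. In the dendritic cell spots its median place among the 27 types at 2, 5 and 7 dpi was 11, 6 and 7, compared with 23, 21 and 20 in the other spots. Dendritic theta chose the spots, so its higher place there than in the other spots is not a separate result. A dendritic cell spot at 2 dpi had a median of 16 types at 0.01 or more, against 6 in the other spots. The corresponding medians were 10 and 5 at 5 dpi, and 8 and 6 at 7 dpi. Dendritic cells were among the 10 highest types in 47.8% of dendritic cell spots at 2 dpi (55 of 115), compared with 80.95% at 5 dpi (51 of 63) and 88.7% at 7 dpi (86 of 97). Counting only those spots, the shares of the sections became 6.40%, 5.47% and 8.90%, with 7 dpi highest. At a theta of at least 3 times the spot's median type, 25, 29 and 64 dendritic cell spots remained (21.7%, 46.0% and 66.0%), and the shares were 2.91%, 3.11% and 6.63%. Both rules relative to the rest of the spot therefore placed 7 dpi above 2 dpi, and the fixed minimum over all spots placed it below. The fixed minimum of 0.01 also placed it below with 5000 to 10000 UMIs (6.75% against 10.2%). It placed 7 dpi slightly above with at least 3000 UMIs (10.04% against 9.62%) and at least 10000 UMIs (10.8% against 10.6%).

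Dendritic cell spots concentrated where little of the RNA was assigned to myonuclei, the nuclei of mature fibers. Summed theta of all types other than the 2 myonuclei columns had a median of 0.555 in dendritic cell spots against 0.189 in other spots at 2 dpi, 0.450 against 0.200 at 5 dpi, and 0.486 against 0.287 at 7 dpi. When each section was divided into 5 equal groups of spots by this sum, the lowest group held 0, 0 and 1 dendritic cell spots. In the highest group their share was 32.6% at 2 dpi (25.6 to 40.1%), 16.6% at 5 dpi (11.6 to 22.7%) and 21.8% at 7 dpi (16.2 to 28.3%). For the 0 of 172 and 0 of 187 spots of the lowest groups at 2 and 5 dpi, the upper limits were 2.12% and 1.95%. These limits cover counting only and do not allow for the overlap between the sum and dendritic theta.

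Rescaling each spot to sum to 1 without myonuclei gave the opposite gradient. Median rescaled dendritic theta was 0.0208 in the lowest group and 0.00991 in the highest at 2 dpi, 0.0154 and 0.00536 at 5 dpi, and 0.0148 and 0.00583 at 7 dpi. After rescaling, 76.4%, 55.3% and 49.9% of all spots passed 0.01, so on that scale the minimum no longer picked out a minority. Means of rescaled theta were 0.0199, 0.0154 and 0.0167. Dendritic cell spots, chosen on the unscaled values, kept higher rescaled medians than the other spots: 0.0293 against 0.0151 at 2 dpi, 0.0399 against 0.0103 at 5 dpi, and 0.0403 against 0.00874 at 7 dpi.

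**Figure D2:**
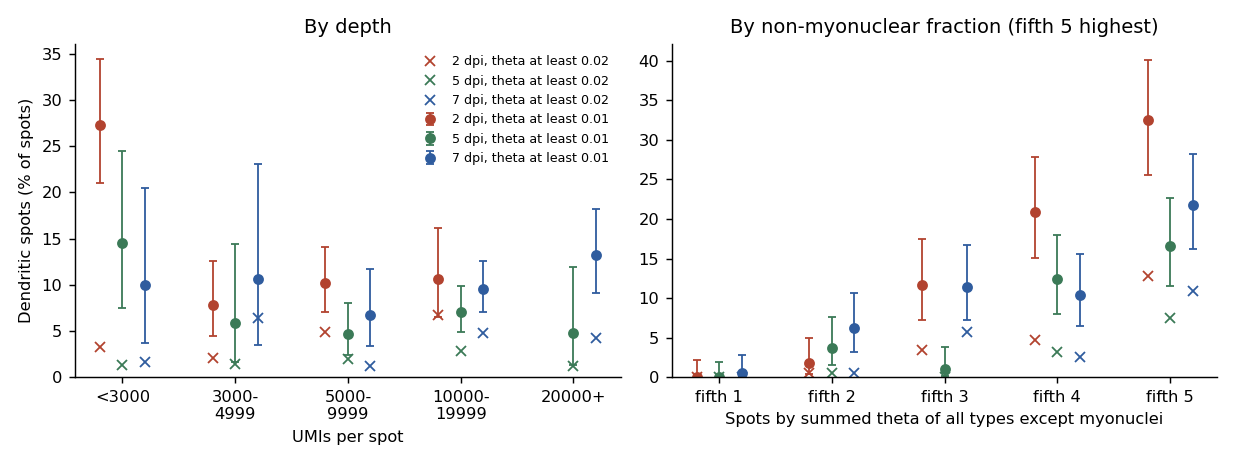
Share of spots with a dendritic theta of at least 0.01 (percent, linear axis) by UMIs of the spot and by group of summed theta without myonuclei, from lowest to highest, for 2, 5 and 7 dpi. Bars on the points are exact 95% intervals for counting error only, and bins with under 20 spots are not drawn. The share at 2 dpi is 27.3% under 3000 UMIs. In all 3 sections the highest group of summed theta, a sum that includes dendritic theta, has the highest share (32.6%, 16.6% and 21.8%).

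Within the dendritic cell spots, most values lay close to the minimum. The median theta at 2, 5 and 7 dpi was 0.0136, 0.0153 and 0.0173, with quartiles of 0.0112 to 0.0227, 0.0115 to 0.0250 and 0.0126 to 0.0242. For the stricter spots the medians were 0.0294, 0.0310 and 0.0273. Medians and quartiles lay close together at the 3 time points, and the highest values differed more.

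The 5 highest spots of each section showed those extremes. At 2 dpi their dendritic theta was 0.143, 0.113, 0.0628, 0.0601 and 0.0536. At 5 dpi it was 0.373, 0.156, 0.133, 0.0668 and 0.0549, and at 7 dpi 0.391, 0.273, 0.186, 0.136 and 0.103. All 5 spots at 7 dpi lay above the third spot at 2 dpi. Dendritic cells were the highest of the 27 types in 0, 1 and 2 spots of the 3 sections. None of these 15 spots was shallow, since their UMIs ran from 7331 to 23973.

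The company of these spots also differed. At 2 dpi the highest dendritic spot had 0.297 of its transcripts assigned to fusing myocytes, the cells that join into new fibers. Another 0.242 was assigned to patrolling monocytes, which the authors describe as high in Fabp5 and negative for Cx3cr1 and Ly6c2. The next spot at 2 dpi was led by Type IIb myonuclei, those of fast fibers, at 0.496. At 5 dpi the highest spot (dendritic theta 0.373) also had NK cells at 0.115 and M2 macrophages (Cx3cr1-hi) at 0.109. NK cells are cytotoxic lymphocytes, and M2 macrophages are the state linked to repair. The second spot at 5 dpi (dendritic theta 0.156) was led by M2 macrophages (Cx3cr1-hi) at 0.260 and Cxcl10+ monocytes, an interferon-responsive state, at 0.229. At 7 dpi the highest spot (dendritic theta 0.391) had NK cells at 0.181 and Cxcl10+ monocytes at 0.128, and the second (0.273) had M2 macrophages (Cx3cr1-hi) at 0.214 and NK cells at 0.0749.

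NK theta was high in several of them. In the 5 highest dendritic spots it was 0.115, 0.0447, 0.0136, 0.125 and 0.00513 at 5 dpi, and 0.181, 0.0749, 0.0371, 0.0210 and 0.00181 at 7 dpi. The section medians of NK theta were 0.00120 and 0.00114. Of the 5 spots with the highest NK theta, 3 were among the 5 highest dendritic spots at 5 dpi and 3 at 7 dpi. At 2 dpi none was, and the 5 highest dendritic spots stood at places 469, 68, 255, 25 and 487 of the 859 spots by NK theta. Even at 5 and 7 dpi the pairing was not uniform, since the fifth dendritic spots stood at NK places 77 and 339.

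**Figure D3:**
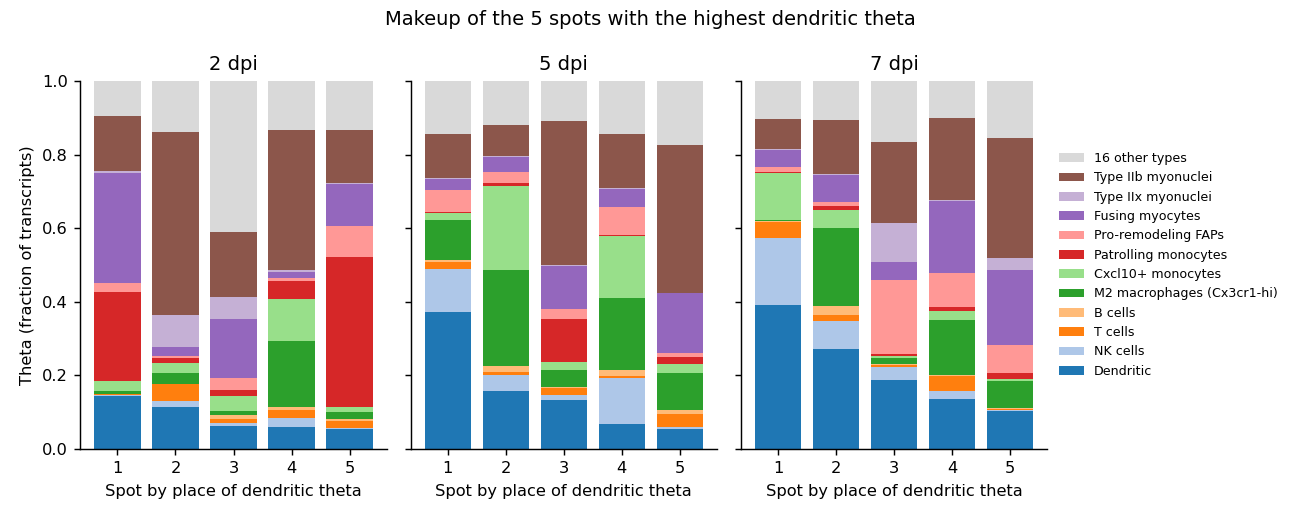
Estimated composition (theta, fraction of transcripts, linear axis from 0) of the 5 spots with the highest dendritic theta at 2, 5 and 7 dpi, each bar being 1 spot and summing to 1. Dendritic theta runs from 0.143 to 0.0536 at 2 dpi, from 0.373 to 0.0549 at 5 dpi and from 0.391 to 0.103 at 7 dpi, and NK cells take up to 0.125 and 0.181 of a bar at 5 and 7 dpi.

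Across all dendritic cell spots, every one of the 10 other immune types had a higher mean theta than in the other spots of its section, at all 3 time points. A higher mean was also found for 24, 23 and 20 of all 26 types at 2, 5 and 7 dpi. It held for 14, 13 and 10 of the 16 that are not immune, so this direction alone was not particular to immune types. Counting a type as a companion at a mean at least 2-fold higher, 8 of the 26 other types were companions at 2 dpi (30.8%), 11 at 5 dpi (42.3%) and 5 at 7 dpi (19.2%). Immune types made up 7, 8 and 4 of these, out of 10, and the 16 remaining types 1, 3 and 1. The median ratio of the immune types was 2.40, 2.64 and 1.86, beside 1.77, 1.65 and 1.27 over all 26 types. Over all spots, companions at all 3 time points were NK cells, T cells, Cxcl10+ monocytes and M2 macrophages (Cx3cr1-hi). At like depth (5000 to 10000 UMIs, with 31, 12 and 11 dendritic cell spots) they were NK cells, T cells, M2 macrophages (Cx3cr1-hi) and pro-remodeling FAPs (stromal fibro/adipogenic progenitors), and Cxcl10+ monocytes were not among them. By medians over all spots, the types at least 2-fold higher in all 3 sections were NK cells, M2 macrophages (Cx3cr1-hi), B cells and inflammatory monocytes. The list of companions thus depended on the measure. No type had a mean at or below 0.5 times that of other spots at 2 dpi (0.0%). Type IIx myonuclei did at 5 and 7 dpi (3.85% of types each).

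The ratios were smaller on both other scales. After rescaling without myonuclei, 0, 1 and 1 of 24 types were at least 2-fold higher (0.0%, 4.17% and 4.17%), namely M2 macrophages (Cx3cr1-hi) at 5 dpi and NK cells at 7 dpi. Without the 5 highest dendritic spots of each section no type was, since these ratios were then 1.96 and 1.60. The median rescaled ratio over all types was 0.902, 0.890 and 0.903 in the full set. The immune medians were 1.26, 1.36 and 1.19. A rescaled mean at or below 0.5 times that of other spots was found for 4, 4 and 1 of the 24 types (16.7%, 16.7% and 4.17%), and capillary endothelium was among them in all 3 sections. When other spots were instead taken from the same group of summed theta without myonuclei, 0, 1 and 1 of 26 types passed (0.0%, 3.85% and 3.85%), with immune medians of 1.30, 1.58 and 1.41 beside 1.09, 1.34 and 1.09 over all types. NK cells were the type that passed in the matched comparison, and none passed without the 5 highest dendritic spots.

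Rescaled means were higher in dendritic cell spots in all 3 sections for 7 types: NK cells, T cells, B cells, M1 macrophages, M2 macrophages (Cx3cr1-hi), Cxcl10+ monocytes and inflammatory monocytes. All 7 are immune. The matched comparison left 11 types above 1 in all 3 sections, namely those 7 with activated muscle stem cells, committed myoblasts, venous endothelium and adipogenic FAPs. Values of the types follow in the order lymphocytes, monocytes and macrophages, granulocytes, and muscle and connective tissue.

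NK cells had the largest unscaled ratios of means at 5 and 7 dpi over all dendritic cell spots. By medians M2 macrophages (Cx3cr1-hi) led instead, with 5.82 against 3.20 for NK cells at 5 dpi and 3.91 against 2.09 at 7 dpi. Mean NK theta was 0.0120 in dendritic cell spots and 0.00501 in others at 2 dpi (ratio 2.39). It was 0.00906 and 0.00197 at 5 dpi (4.59), and 0.00778 and 0.00203 at 7 dpi (3.83). Rescaled ratios were 1.25, 1.74 and 2.09, and matched ratios 1.35, 2.91 and 2.67. The later values rested on few spots. Without the 5 highest dendritic spots the unscaled ratios were 2.41, 2.33 and 2.34 and the matched ones 1.37, 1.53 and 1.68. Inflammatory monocytes (2.62 at 5 dpi) and Cxcl10+ monocytes (2.58 at 7 dpi) then had the largest unscaled ratios. NK ratios in spots with 5000 to 10000 UMIs were 3.08, 2.43 and 2.94, and M2 macrophages (Cx3cr1-hi) led at 5 dpi with 4.44. NK theta reached 0.01 in 62 of 115 dendritic cell spots at 2 dpi (53.9%, others 13.4%). At 5 dpi the count was 8 of 63 (12.7%, others 1.49%), and at 7 dpi 16 of 97 (16.5%, others 1.73%). The higher share at 2 dpi was not particular to NK cells. T cells reached 0.01 in 63.5% (others 18.3%) and committed myoblasts in 64.3% (others 31.9%) there.

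T cells, to which dendritic cells present antigen, had means of 0.0150 against 0.00618 at 2 dpi, 0.00677 against 0.00259 at 5 dpi and 0.00578 against 0.00241 at 7 dpi. These are ratios of 2.43, 2.62 and 2.40, close to each other at the 3 time points for means over all dendritic cell spots only. By medians the ratios were 3.65, 2.81 and 1.99, under 2-fold at 7 dpi. In the stricter spots they were 2.46, 3.55 and 3.56. Without the 5 highest dendritic spots they were 2.40, 2.30 and 2.05. Rescaled, they were 1.28, 1.24 and 1.32, and matched 1.32, 1.73 and 1.82. In spots with 5000 to 10000 UMIs the unscaled ratios were 2.84, 2.39 and 2.70.

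B cells, the antibody-producing lineage that shares class II genes with dendritic cells, followed dendritic theta most closely over whole sections. At 2, 5 and 7 dpi their rho with dendritic theta was 0.87, 0.83 and 0.71, the highest of the 26 types each time. On rescaled values it was 0.69, 0.72 and 0.65, also the highest. In spots with 5000 to 10000 UMIs rho was 0.86, 0.83 and 0.70 unscaled, second at 7 dpi to M2 macrophages (Cx3cr1-hi) at 0.71. Both columns come from 1 estimate, share a denominator and have low levels near the floor, and whether class II transcripts are divided between them was not tested. Within dendritic cell spots, B cell rho was only 0.15, 0.071 and 0.092. Mean B cell theta was 2.41, 2.76 and 1.71 times that of other spots unscaled, and 1.05, 1.33 and 1.08 times rescaled. At 5000 to 10000 UMIs the unscaled ratios of means were 3.14, 3.39 and 1.05, with no 2-fold call at 7 dpi in either set. By medians over all spots the B cell ratios were 2.70, 2.85 and 2.24. The correlation was thus high over all spots of a section and low among the members alone. Members were cut on dendritic theta itself, which narrows its range, so the drop is not read as a trait of B cells. Over all 26 types the median rho within members was -0.145, 0.0126 and -0.000125.

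Monocytes are blood-derived precursors of macrophages. The Cxcl10+ state had ratios of 2.79, 3.42 and 2.84 unscaled, but 3.72, 2.98 and 1.52 in spots with 5000 to 10000 UMIs, so the 2-fold call at 7 dpi was lost there. By medians its ratio at 7 dpi was 1.99. It had the largest rescaled ratio of any type at 2 dpi (1.74, then 1.86 and 1.66). Inflammatory monocytes, which enter tissue early after injury, had 2.82, 2.66 and 1.95 unscaled and 1.62, 1.48 and 1.24 rescaled. By medians their unscaled ratios were 3.85, 2.93 and 2.14. Patrolling monocytes were the most abundant immune type at 2 dpi, with a mean of 0.130 in dendritic cell spots and 0.0699 in others. Medians at 2 dpi differed far more than means, at 0.0959 against 0.00670, a ratio of 14.3. The ratios of means of 1.86, 2.58 and 1.17 became 0.739, 1.498 and 0.852 in the matched comparison, so they did not keep to one side of 1.

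Macrophages clear debris and later support repair. M2 macrophages (Cx3cr1-hi) had means of 0.0213 against 0.00878 at 2 dpi, 0.0408 against 0.0126 at 5 dpi and 0.0397 against 0.0156 at 7 dpi, or ratios of 2.42, 3.24 and 2.55. Rescaled ratios were 1.21, 2.29 and 1.99, and matched ratios 1.36, 1.40 and 1.45. Over whole sections their rho with dendritic theta was 0.80, 0.64 and 0.40 unscaled, and 0.43, 0.039 and -0.035 rescaled. The Cx3cr1-lo state differed from it, with ratios of 1.78, 1.41 and 1.26 unscaled and 0.988, 0.797 and 0.875 matched. M1 macrophages, the pro-inflammatory state, had 2.30, 2.28 and 1.78 unscaled, 1.41, 1.30 and 1.14 rescaled and 1.13, 1.42 and 1.37 matched. Of the 3 macrophage states, only the Cx3cr1-lo one was below 1 in all 3 sections when matched, and at 2 dpi it was at 1.02 without the 5 highest dendritic spots.

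Neutrophils, the first granulocytes to reach an injury, had means of 0.00817 against 0.00433 at 2 dpi, 0.00336 against 0.00203 at 5 dpi and 0.00211 against 0.00197 at 7 dpi. Their rescaled ratios of 0.877, 0.803 and 0.652 were the lowest of the 10 immune types in each section.

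Muscle and connective tissue types lay on both sides of 1. Pro-remodeling FAPs, which deposit matrix during repair, had ratios of 1.66, 1.59 and 1.49 unscaled and 0.990, 0.878 and 0.992 matched. At 5000 to 10000 UMIs they passed 2-fold, at 2.27, 2.20 and 2.01. For fusing myocytes they were 1.65, 1.30 and 1.13, and 1.004, 0.673 and 0.757 matched. Type IIb myonuclei had a mean of 0.418 in dendritic cell spots against 0.657 at 2 dpi, 0.467 against 0.613 at 5 dpi and 0.479 against 0.582 at 7 dpi. Type IIx myonuclei had ratios of 0.521, 0.471 and 0.458, and 0.796, 0.788 and 0.640 when matched. Among the remaining types, tenocytes (tendon fibroblasts) were a companion at 2 and 7 dpi, with ratios of 2.32 and 2.22. Both calls were lost by medians (1.92 and 1.29) and in spots with 5000 to 10000 UMIs (1.19 and 1.45). In that depth range tenocytes passed 2-fold only at 5 dpi (2.12). Smooth muscle (2.36), activated muscle stem cells (2.19) and adipogenic FAPs (2.07) were companions at 5 dpi. In the same order their ratios there were 1.33, 2.25 and 1.96 by medians, and 3.98, 1.96 and 3.39 at 5000 to 10000 UMIs.

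Transcript classes not used by the deconvolution were compared side by side, without a test since spots of 1 section are not replicates. Mitochondrial genes made up a median of 15.4% of UMIs in dendritic cell spots and 30.95% in other spots at 2 dpi, 11.9% and 25.2% at 5 dpi, and 12.4% and 17.7% at 7 dpi. For ribosomal protein genes the medians were 8.39% and 5.16%, 10.7% and 6.23%, and 10.5% and 7.52%. Dendritic cell spots were thus low in mitochondrial and high in ribosomal protein transcripts at each time point, and the differences had the same direction in spots with 5000 to 10000 UMIs. Against other spots of the same group of summed theta without myonuclei they were small: the matched mitochondrial medians were 16.2%, 14.0% and 14.1%, and the ribosomal ones 8.07%, 10.2% and 9.43%.

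Genes per spot depended on depth at 2 dpi. Dendritic cell spots there had a median of 3627 UMIs and 1603 genes, other spots 5934 UMIs and 1740.5 genes. At 7 dpi the dendritic cell spots were the deeper ones, with 17623 UMIs against 14910 and 3749 genes against 2924. In spots with 5000 to 10000 UMIs dendritic cell spots had more genes at all 3 times: 2481 against 1878.5, 2562.5 against 1979, and 2643 against 2157. Hemoglobin, a sign of blood in the tissue, gave at least 1 UMI in 26.96% of dendritic cell spots and 27.4% of others at 2 dpi, 88.9% and 85.3% at 5 dpi, and 85.6% and 92.3% at 7 dpi, with no common direction.

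**Figure D4:**
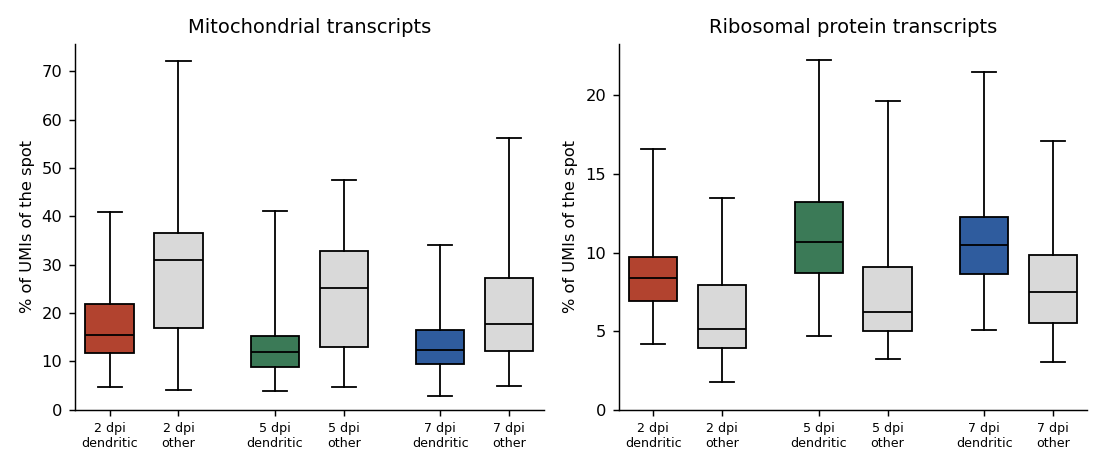
Mitochondrial and ribosomal protein transcripts (percent of UMIs per spot, linear axis) in dendritic cell spots and other spots of the sections at 2, 5 and 7 dpi. Boxes span the quartiles with the median as a line, and whiskers reach the lowest and highest spot. Mitochondrial medians are lower (15.4%, 11.9% and 12.4%) and ribosomal protein medians higher (8.39%, 10.7% and 10.5%) in dendritic cell spots than in other spots, with overlapping ranges.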

How the data were processed

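Values per spot were taken for 3 sections of notexin-injured mouse tibialis anterior, grouped by the treatment day in the labels, with 1 section per time point. Per the study's methods, the authors aligned Visium reads to mm10 with Space Ranger 1.0, chose spots over tissue by hand, and estimated theta with BayesPrism from marker genes of a single-cell muscle compendium, leaving out mitochondrial and ribosomal protein genes. The submitters' processing notes also name Seurat 3.2.1. The deposited UMI and gene numbers are raw counts. The deposited percent values are shares of a spot's UMIs. The deposited theta values are fractions that sum to 1 over 27 types (tolerance 1e-06). Median dendritic theta was higher in shallow spots, which can move a spot over a fixed minimum.

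The following were computed from the tables. Spots with dendritic theta of at least 0.01 were compared with the other spots of the section by means, shares at 0.01 and Spearman's rho. Values were repeated on theta rescaled without the 2 myonuclei columns, in spots with 5000 UMIs to under 10000, and against spots of the same of 5 equal groups of summed theta without myonuclei, weighted by the dendritic cell spots in each. The sum that forms these groups includes dendritic theta. Shares have exact Clopper-Pearson 95% intervals. No test was made, since spots are not replicates. No spot was left out of the main values. Cell types given with values were the 10 other immune types, pro-remodeling FAPs, fusing myocytes and both myonuclei columns, and others past 2-fold are named by that rule or after their values were seen. The spots, lists and rules were chosen with earlier results of these data known. The 5 highest spots were chosen after seeing the data, as were the minimum of 10000 UMIs and the dendritic percent of immune theta. The image alignments carry no barcodes and were not used, so neighbouring spots were not compared. The reference described in the methods has fewer types than the table, so another version of it may have been used. The code was tested on simulated data. Python 3.11.15, pandas 2.3.3, numpy 2.4.6, scipy 1.17.1 and matplotlib 3.10.9 were used.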

Additional observations from a re-analysis of the deposited data

Results flagged for a closer look

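For 3 cell types and for depth, dendritic cell spots changed side between sections. They lay above the other spots in one section and below them in another, by at least 1.1-fold each way. Arterial endothelium (1.24, 1.34 and 0.944) and median genes per spot (0.921, 1.23 and 1.28) also changed side, but lay less than 1.1-fold below. None of these differences between sections was tested, since each time point had 1 section. Mean theta of capillary endothelium in dendritic cell spots was 1.25 times that of other spots at 2 dpi, 1.04 times at 5 dpi and 0.728 times at 7 dpi. Stem-like endothelium had ratios of 1.76, 1.09 and 0.903. Neural cells had ratios of 1.34, 0.827 and 0.786. Median UMIs per spot had ratios of 0.611, 0.988 and 1.18, and moved in the opposite sense to the ratios of these 3 types. In spots with 5000 to 10000 UMIs the 3 ratios were 0.849, 1.22 and 0.738 for capillary endothelium, 2.15, 1.64 and 0.769 for stem-like endothelium, and 0.953, 0.810 and 0.518 for neural cells, so neural cells were then below 1 in all 3 sections. Rescaled without myonuclei, all 3 types were below 1 in each section (0.391, 0.480 and 0.390, then 0.702, 0.502 and 0.531, then 0.483, 0.458 and 0.632).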

How the results depend on the processing

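Spots were few at high theta, depth differed between sections and each time point had 1 section, so orders between time points describe these sections only. No paired analysis was possible because each group had 1 section. The share of dendritic cell spots (13.4%, 6.75% and 10.04% at 2, 5 and 7 dpi) moved outside its interval with minimum theta 0.02 (4.31%, 2.25%, 3.93%), 0.05 (0.815%, 0.643%, 0.725%), 0.02 with at least 10000 UMIs (6.67%, 2.62%, 4.60%), rescaling without myonuclei (76.4%, 55.3%, 49.9%), 3 times the spot's median (2.91%, 3.11%, 6.63%) and 5000 to 10000 UMIs (10.2%, 4.71%, 6.75%). At 2 dpi it also moved with at most 10 types (6.40%), at least 3000 UMIs (9.62%) and at least 10000 UMIs (10.6%). The share at 7 dpi over that at 2 dpi was 0.750 and reversed to 1.39 with at most 10 types, 1.04 with at least 3000 UMIs, 2.28 with 3 times the spot's median and 1.02 with at least 10000 UMIs. For 5 over 2 dpi it was 0.504 and reversed to 1.07 with 3 times the spot's median. It moved to 0.789 (theta 0.05), 0.724 (rescaled), 0.854 (10 types), 0.631 (3000 UMIs), 0.639 (10000 UMIs) and 0.393 (0.02 with 10000 UMIs). For 7 over 5 dpi it was 1.49, reversed to 0.902 when rescaled, and moved to 1.13 (theta 0.05) and 2.13 (3 times the spot's median). The causes of these shifts were not tested.

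Mean dendritic theta moved when taken as the median (0.00339, 0.00201, 0.00235), rescaled (0.0199, 0.0154, 0.0167) and, at 7 dpi, in spots of 5000 to 10000 UMIs (0.00391). Its 7 over 2 dpi ratio was 0.957, was 0.694 for medians, and reversed to 1.04 weighted by UMIs and 1.06 with at least 3000 UMIs. The dendritic percent of immune theta at 7 dpi was 6.72% in spots of 5000 to 10000 UMIs, which took its 7 over 2 dpi ratio from 2.62 to 1.98 and reversed 7 over 5 dpi from 1.15 to 0.929. Types at least 2-fold higher numbered 8, 11 and 5, and 0, 1 and 1 both rescaled and matched, 0, 2 and 2 when dendritic theta was also removed before rescaling, and 15 at 2 dpi by medians. The matched ratios of mitochondrial percent were 0.949, 0.851 and 0.884 and those of ribosomal protein percent 1.04, 1.04 and 1.11, each nearer to 1 than unmatched. Genes per spot reversed at 2 dpi to 1.32 in spots of 5000 to 10000 UMIs and 1.47 with theta 0.02, and at 5 dpi to 0.914 when matched. UMIs per spot reversed to 1.24 at 2 dpi and 1.29 at 5 dpi with theta 0.02.

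Of 282 alternative ratios of the 14 named types, 107 stayed within 1.25-fold on the same side of 1, 142 moved further on that side and 33 crossed 1. M2 macrophages (Cx3cr1-lo) crossed at 5 and 7 dpi rescaled (0.893, 0.926), rescaled without dendritic theta (0.938, 0.977), and matched in all 3 sections (0.988, 0.797, 0.875). Patrolling monocytes crossed at 7 dpi (0.848, 0.893 and 0.852 in the same order) and matched at 2 dpi (0.739). Neutrophils crossed rescaled (0.877, 0.803, 0.652), without dendritic theta (0.897, 0.847, 0.687) and matched at 7 dpi (0.871). Pro-remodeling FAPs crossed at 2 dpi rescaled (0.838) and without dendritic theta (0.872), and matched (0.990, 0.878, 0.992). Fusing myocytes crossed rescaled (0.915, 0.926, 0.875), without dendritic theta (0.945, 0.962, 0.918) and matched at 5 and 7 dpi (0.673, 0.757). Type IIb myonuclei crossed at 7 dpi matched (1.03), and Type IIx at 2 dpi by medians (1.19).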
